A study of Mus musculus with 12 samples.

Results

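Netrin 1 and 7 other genes of the netrin and Slit guidance systems were followed in 12 mouse sarcoma tumors. The 4 ligands were Ntn1, Ntn4, Slit2 and Slit3, and the 4 receptors were Unc5b, Unc5c, Neo1 and Robo1. They were taken by symbol from the deposited expression table, where all 8 of 8 were found among 16335 genes. The 8 genes were chosen by symbol with the treatment differences of these same libraries in view, so their levels and differences are a description. Where the fit across all genes gives a p for them, it is counted beside the share of all genes and supports nothing about the 8.

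The tumors grew from BVMA01R, a murine sarcoma cell line, in female C57BL/6J mice. Every group carried the same genotype, Myf5-Cre;p53-/-;Ass1-/-: a Cre recombinase driven by Myf5, a gene of early muscle precursors, with the tumor suppressor p53 and argininosuccinate synthase, which lets cells rebuild arginine, both labelled as deleted. The 4 groups of 3 libraries were untreated tumors and tumors given chloroquine, ADI-PEG20, or ADI-PEG20 plus chloroquine. ADI-PEG20, an arginine deiminase coupled to polyethylene glycol, removes arginine from the circulation, and chloroquine blocks breakdown in lysosomes. The comparisons ask what arginine loss, lysosomal block and both together change in tumors labelled Ass1-/-. The labels give no age, dose, time or batch and do not say that each library came from a separate animal, so any p-value measures only the spread between these samples. All tumors came from 1 line, and a tumor also holds vessels, stroma and immune cells of its host.

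Netrins and Slits are secreted proteins best known for steering growing axons. Netrin 1 attracts through Dcc and neogenin (Neo1) and repels through Unc5 receptors, while Slits repel through Robo receptors. Outside the nervous system the same proteins act on blood vessels, cell migration and immune cell traffic, and the Unc5 receptors are known as dependence receptors that can promote cell death when netrin is missing. In bulk tumor RNA, fewer cells of a type and less RNA per cell cannot be told apart.

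The libraries held 15501998 to 28410940 reads in the table, and the 8 genes took between 130 and 6083 reads in any library, so counting error was small for all but the lowest values of Unc5c. The third untreated library had the fewest reads in the table. The first ADI-PEG20 library had the smallest effective library size used for scaling, 12590136 against 15684619 in the third untreated library. The first ADI-PEG20 library stood apart: 22.8% of its reads fell on the single transcript Gm26917, 120 genes were at 0 reads, and its median correlation with the other libraries was 0.92. The second untreated library had 16.4% on Gm26917, and the other 10 had 5.09% to 9.86%. Mesenchymal markers were high in every library, with vimentin (Vim) at 2090 to 3620 CPM (read counts scaled by library size) and fibronectin (Fn1) at 4260 to 7200 CPM. Myf5 lay between 12.3 and 54.4 CPM and the muscle determination factor Myod1 between 0.779 and 38.8 CPM. Ass1 gave 6.85 to 18.9 CPM and Trp53 13.0 to 26.8 CPM across the 12 tumors, with no tumor of intact genotype to set beside them.

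Per kilobase of the longest coding transcript, the mean level over the 12 libraries was highest for Ntn1 and lowest for Unc5c. Ntn1 averaged 20.1 CPM per kilobase (SD 8.41, n = 12), Unc5b 18.9 (SD 3.57), Slit3 18.1 (SD 4.02), Neo1 15.2 (SD 2.79), Slit2 14.5 (SD 6.79) and Robo1 13.3 (SD 4.57). Ntn4 averaged 7.58 CPM per kilobase (SD 1.39) and Unc5c 2.14 (SD 0.859). Between neighbours in this order, only Ntn4 and Unc5c had ranges that did not overlap, with Ntn4 above Unc5c in 12 of 12 libraries. Ntn1 was above Unc5b in 6 of 12, so the top of the order is not fixed. Dividing by all exonic bases instead put Slit2 at 5.67 and Robo1 at 6.1, below Ntn4 at 7.39, because those genes have long alternative exons. The genes also varied unlike each other among libraries: Slit2 spanned a 5.88-fold range of CPM, Unc5c 4.99-fold, Robo1 3.52-fold and Ntn1 3.5-fold, while Ntn4, Slit3, Unc5b and Neo1 spanned 1.67-fold to 2.03-fold.

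**Figure D1:**
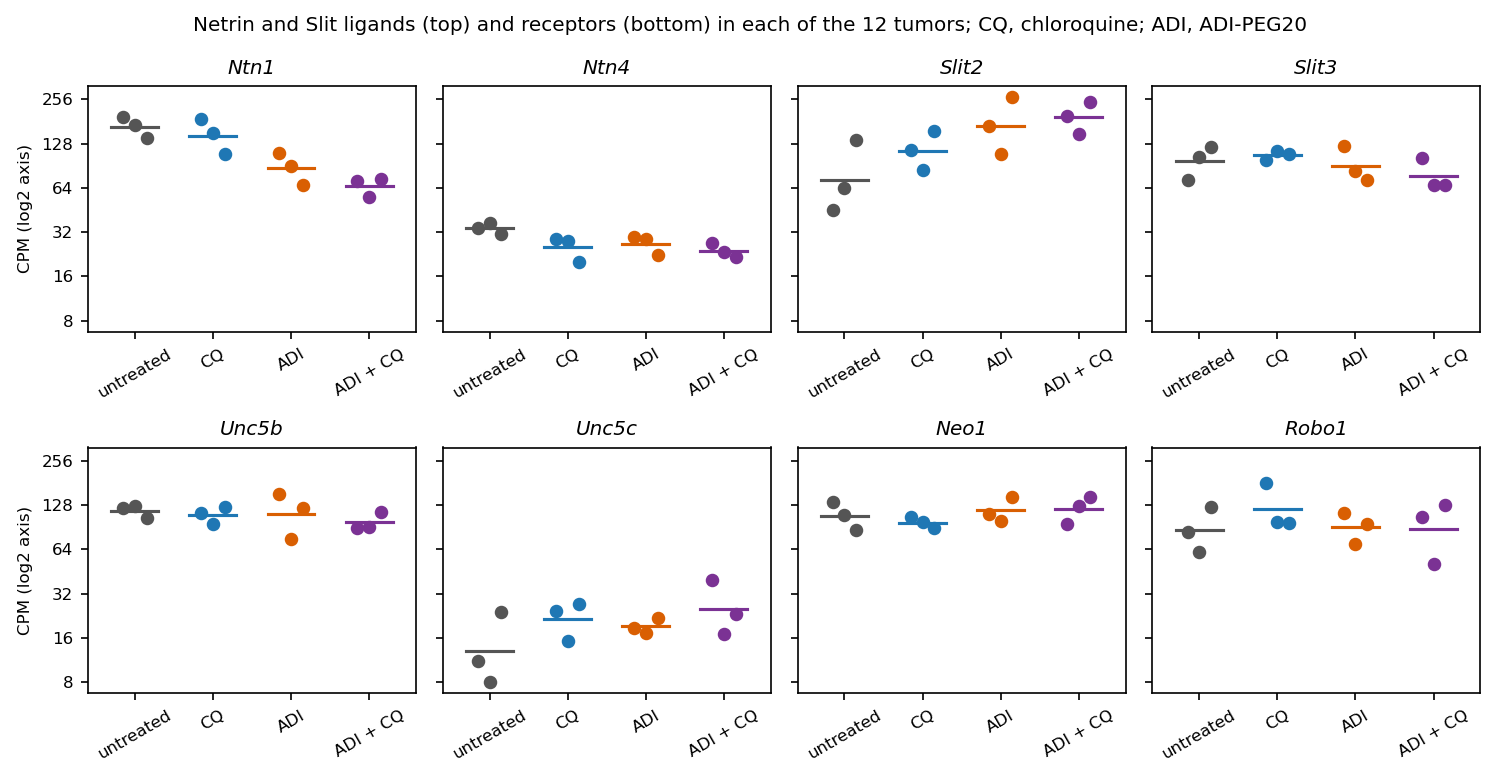
Level of each gene in each tumor, in CPM on a log2 axis. Points are libraries in replicate order and bars are the mean of the log2 values of a group (n = 3). The 3 doubly treated tumors have Ntn1 at 55.5 to 73.1 CPM against 139 to 194 in untreated tumors, and Slit2 at 150 to 245 against 45.1 to 135.

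Netrin 1 averaged lowest in the groups that received ADI-PEG20. Ntn1 (ENSMUSG00000020902, minus strand of chr11:68209364-68400823, GRCm38) stood at 194, 172 and 139 CPM in the untreated tumors. The chloroquine tumors gave 187, 151 and 108 CPM. The ADI-PEG20 tumors gave 110, 89.8 and 67.0 CPM, and the tumors with both drugs 70.8, 55.5 and 73.1 CPM. Both groups with ADI-PEG20 lay wholly below the untreated group, and the doubly treated group lay wholly below chloroquine alone, while chloroquine overlapped the untreated group.

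On the log2 CPM scale, the Ntn1 difference from untreated was -0.94 (SE 0.23) with ADI-PEG20, a level 1.92-fold lower. It was -1.34 (SE 0.23) with both drugs, 2.53-fold lower, and -0.20 (SE 0.23) with chloroquine alone. Adding ADI-PEG20 to chloroquine went with a difference of -1.14 (SE 0.23), 2.2-fold lower. Adding chloroquine to ADI-PEG20 gave -0.40 (SE 0.23), with groups that overlapped at their edges. The interaction, which is the ADI-PEG20 difference with chloroquine minus that without it, was -0.20 (SE 0.32), smaller than its error. Among all 16335 genes, 325 had a lower difference than Ntn1 between doubly treated and untreated tumors. Without the first ADI-PEG20 and second untreated libraries the Ntn1 differences were -1.08 (ADI-PEG20) and -1.32 (both drugs).

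Netrin 4, a laminin-related netrin of basement membranes, was highest in the 3 untreated tumors. Ntn4 (ENSMUSG00000020019, plus strand of chr10:93640681-93747207) gave 34.3, 36.8 and 31.1 CPM there. It gave 28.7, 27.9 and 20.2 CPM with chloroquine, 29.6, 28.6 and 22.4 CPM with ADI-PEG20, and 26.8, 23.4 and 21.7 CPM with both. All 9 treated tumors were below all 3 untreated ones, and the treated groups overlapped each other. The share of all genes is given further on for each comparison alone and was not counted for this joint pattern. The log2 differences from untreated were -0.43 with chloroquine, -0.35 with ADI-PEG20 and -0.51 with both (SE 0.18 each), corresponding to levels 1.28-fold to 1.43-fold lower. The interaction was 0.27 (SE 0.26).

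Slit2, a repellent ligand of Robo1 and Robo2, ran opposite to Ntn1. Slit2 (ENSMUSG00000031558, plus strand of chr5:47983138-48307733) gave 45.1, 63.7 and 135 CPM in untreated tumors and 115, 84.2 and 155 CPM with chloroquine. It gave 169, 108 and 265 CPM with ADI-PEG20 and 196, 150 and 245 CPM with both drugs. The doubly treated tumors lay wholly above the untreated ones; the third untreated tumor, at 135 CPM, was above the lowest ADI-PEG20 tumor. The log2 difference from untreated was 1.21 (SE 0.39) with ADI-PEG20, 2.32-fold higher, and 1.41 (SE 0.39) with both, 2.65-fold higher. Chloroquine alone gave 0.65 (SE 0.39), both drugs against chloroquine 0.76 (SE 0.39), both against ADI-PEG20 0.19 (SE 0.39), and the interaction was -0.46 (SE 0.55).

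The size of the Slit2 difference depended on single tumors, untreated and treated. The third library had the highest Slit2 of its group in all 4 groups, at 135, 155, 265 and 245 CPM. The labels do not say whether a replicate number marks anything shared, so a tumor and its replicate number cannot be told apart here. Sample numbers in the labels rise with the replicate number in each group, and those of the third replicates are consecutive. Without the third untreated library it was 1.66 with ADI-PEG20, 1.85 with both drugs and 1.09 with chloroquine, and without the first it was 0.86, 1.06 and 0.30. Without the third ADI-PEG20 library the difference with ADI-PEG20 was 0.89, and without the second ADI-PEG20 library it was 1.53. Without the first ADI-PEG20 and second untreated libraries the Slit2 difference was 1.12 with ADI-PEG20 and 1.31 with both drugs.

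The sequence just upstream of Slit2 is shown because Slit2 had the highest positive difference of the 8 genes, beside that of Unc5b, a gene whose groups overlapped in all comparisons and whose window lies outside the annotated transcripts. RefSeq promoter windows on GRCm38.p6 were matched for 7 of the 8 genes, and the 250 bases before each RefSeq start were searched on both strands for 5 motifs. These were the TATA box, searched as TATAAA, the CAAT box, searched as CCAAT, and the GC box, searched as GGGCGG. The core of hypoxia and E-box elements was searched as ACGTG, and the amino acid response element, which stress factors bind when amino acids run short, as TGATGNAA. The motifs do not overlap each other in the windows shown. Motif matches are in capitals, and a GC box on the other strand reads CCGCCC.
Slit2, chr5:47982905-47983154, plus strand: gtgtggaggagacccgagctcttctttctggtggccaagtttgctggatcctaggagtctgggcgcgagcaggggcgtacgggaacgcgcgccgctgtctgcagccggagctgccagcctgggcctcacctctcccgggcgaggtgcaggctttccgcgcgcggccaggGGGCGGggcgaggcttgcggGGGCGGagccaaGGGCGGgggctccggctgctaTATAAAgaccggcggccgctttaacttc
Unc5b, chr10:60831582-60831831, minus strand: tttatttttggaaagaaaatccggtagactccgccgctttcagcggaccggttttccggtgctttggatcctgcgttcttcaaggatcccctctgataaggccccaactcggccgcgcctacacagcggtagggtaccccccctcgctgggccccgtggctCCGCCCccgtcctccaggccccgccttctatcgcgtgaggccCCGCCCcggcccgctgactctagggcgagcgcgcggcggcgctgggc
The Slit2 window held the TATA box letters once, 28 bases before the start, and those of the GC box 3 times, and its GC content was 69.6%. The Unc5b window held those of the GC box 2 times at a GC content of 66.8% and none of the other motifs. Of 32851 promoters of the same length, 12.4% held the TATA box letters, 33.8% those of the CAAT box, 32.7% those of the GC box, 16.6% those of the hypoxia and E-box core and 3.45% those of the amino acid response element. Slit2 was the only one of the 7 matched genes with the TATA box letters in this window. None of the 7 held the hypoxia and E-box core or the amino acid response element. Not all 7 windows lie upstream of the GENCODE gene. The GENCODE start minus the RefSeq start was 0 for Neo1 and Unc5b and -17 for Slit2. It was -232 for Slit3, -348 for Unc5c, -368 for Ntn4 and -354843 for Robo1. For these plus strand genes a negative value puts the RefSeq start inside the annotated gene. A match describes the letters and does not show that a factor binds there.

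Slit3, the third Slit family ligand, did not separate the groups. Slit3 (ENSMUSG00000056427, plus strand of chr11:35121224-35708507) gave 72.8, 104 and 122 CPM in untreated tumors and 99.0, 114 and 109 CPM with chloroquine. It gave 123, 83.1 and 72.9 CPM with ADI-PEG20 and 102, 67.2 and 67.0 CPM with both. The groups overlapped in all 5 comparisons, and the log2 differences from untreated were -0.10, 0.14 and -0.33 (SE 0.24 each) for ADI-PEG20, chloroquine and both. Without the first ADI-PEG20 library, which held the 123 CPM, the ADI-PEG20 difference was -0.32. Within the tumors, the per-kilobase ratio of Slit2 to Slit3 had a median of 0.325 in untreated tumors, 0.608 with chloroquine, 0.719 with ADI-PEG20 and 1.18 with both. In untreated tumors the ratio reached 0.583 at most, and in doubly treated tumors it ran from 1.0 to 1.92. Slit2 alone already separates these groups, so the ratio adds nothing to that, and its height depends on the transcript length used.

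**Figure D2:**
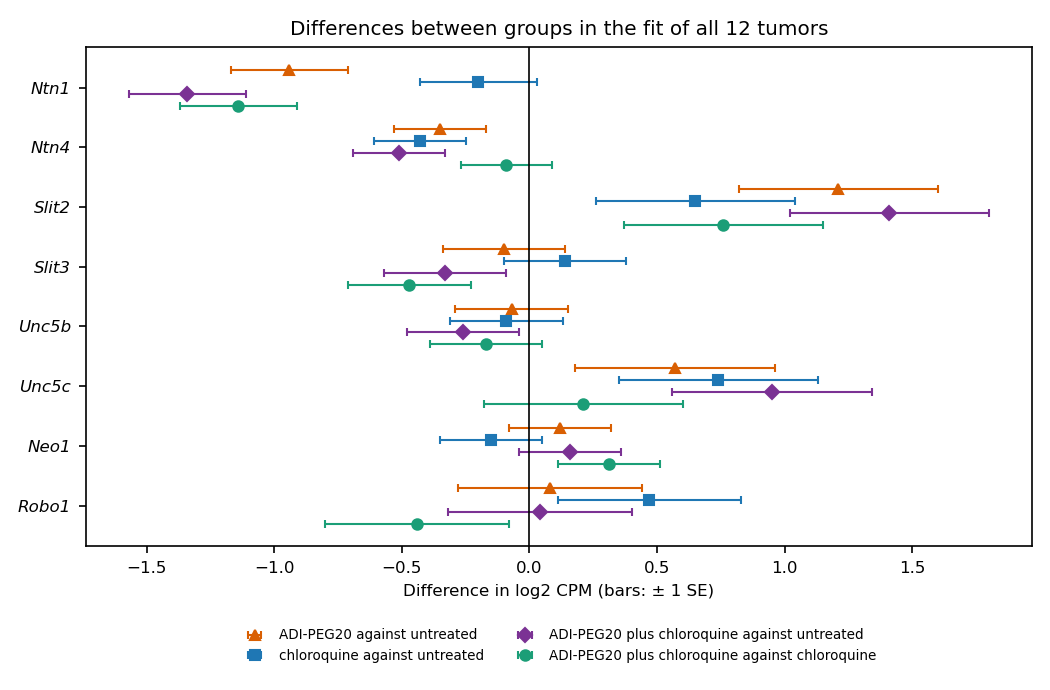
Difference in log2 CPM between groups for each gene, with bars of 1 SE from the fit of all 12 tumors. Ntn1 lies farthest to the left, at -1.34 with both drugs, and Slit2 farthest to the right, at 1.41, while Neo1, Unc5b, Slit3 and Robo1 lie within 0.47 of 0.

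Among the netrin receptors, Unc5b and Neo1 had overlapping groups in all 5 comparisons. Unc5b (ENSMUSG00000020099, minus strand of chr10:60762593-60831581), a receptor of endothelial tip cells, gave 122, 126 and 104 CPM untreated and 113, 94.8 and 124 CPM with chloroquine. It gave 152, 74.9 and 122 CPM with ADI-PEG20 and 89.0, 91.2 and 115 CPM with both. The ADI-PEG20 group held both the highest and the lowest of the 12 values, and the log2 differences from untreated were -0.07, -0.09 and -0.26 (SE 0.22 each) for ADI-PEG20, chloroquine and both. Without the second ADI-PEG20 library, the lowest, the ADI-PEG20 difference was 0.22. Without the first, which was the highest and the richest in Gm26917, it was -0.29.

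Neo1 (ENSMUSG00000032340, minus strand of chr9:58874687-59036441) encodes neogenin, which binds netrins and the repulsive guidance molecules Rgma and Rgmb. It gave 134, 109 and 86.4 CPM untreated, 106, 98.2 and 88.8 CPM with chloroquine, 112, 100 and 145 CPM with ADI-PEG20, and 95.1, 127 and 145 CPM with both. The log2 differences from untreated were 0.12, -0.15 and 0.16 (SE 0.20 each) for ADI-PEG20, chloroquine and both. The per-kilobase ratio of Ntn1 to Neo1 was 1.83 to 2.02 in untreated tumors and 0.55 to 0.935 in doubly treated tumors. The ADI-PEG20 tumors gave ratios of 0.582 to 1.23, and the chloroquine tumors 1.53 to 2.22. Ntn1 alone already separated untreated tumors from both groups with ADI-PEG20, so the ratio adds nothing to that.

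Unc5c, a repulsive netrin receptor, was the scarcest of the 8 genes and one of the most uneven. Unc5c (ENSMUSG00000059921, plus strand of chr3:141465216-141834924) gave 11.2, 8.01 and 24.1 CPM untreated and 24.5, 15.2 and 27.1 CPM with chloroquine. It gave 18.7, 17.3 and 21.9 CPM with ADI-PEG20 and 39.9, 16.9 and 23.1 CPM with both. The first and second untreated tumors were the lowest of the 12, and the third lay within the chloroquine and doubly treated ranges and above all 3 ADI-PEG20 tumors. The log2 differences from untreated were 0.57, 0.74 and 0.95 (SE 0.39 each) for ADI-PEG20, chloroquine and both. These rest on single libraries: without the second untreated library they were 0.22, 0.39 and 0.60, and without the third 1.02, 1.19 and 1.4. The second untreated library is one of the pair rich in Gm26917, and without that pair they were 0.24, 0.39 and 0.60. Exons of Unc5c share 118 bases with Gm15688 on the opposite strand, and whether the counting used strand is not given in the sources used here.

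Robo1, the Slit receptor, had wide and overlapping groups. Robo1 (ENSMUSG00000022883, plus strand of chr16:72308306-73046095) gave 84.5, 61.1 and 124 CPM untreated and 180, 98.1 and 97.2 CPM with chloroquine. It gave 114, 69.4 and 94.8 CPM with ADI-PEG20 and 106, 51.1 and 128 CPM with both. The first chloroquine tumor was the highest of the 12 and the second doubly treated tumor the lowest. The log2 differences from untreated were 0.08, 0.47 and 0.04 (SE 0.36 each) for ADI-PEG20, chloroquine and both, and the first and last take the other sign, -0.34 and -0.21, without the pair of libraries rich in Gm26917. The per-kilobase ratio of Slit2 to Robo1 was 0.405 to 0.826 in untreated tumors and 0.483 to 1.21 with chloroquine. It was 1.12 to 2.12 with ADI-PEG20 and 1.4 to 2.23 with both. This ratio separates ADI-PEG20 from untreated tumors although Slit2 alone overlaps there. How many gene pairs separate these groups was not counted, and the height of the ratio depends on the transcript length used.

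Set against the whole table, the limma fit of all 12 libraries called 0 of the 8 genes at a Benjamini-Hochberg adjusted p under 0.05 in any of the 6 contrasts, and 0.0% of all 16335 genes in each; limma with voom weights on the recovered reads also called 0 in each. Ntn1 was the 1 gene of the 8 called in any alternative fit. At an unadjusted p under 0.05 the same limma fit passed 2 of the 8 with ADI-PEG20 (Ntn1 lower, Slit2 higher), where 8.31% of all genes passed. It passed 1 with chloroquine (Ntn4 lower), where 3.4% passed, and 4 with both drugs (Ntn1 and Ntn4 lower, Slit2 and Unc5c higher), where 8.65% passed. Ntn1 was the 1 that passed between both drugs and chloroquine, where 6.78% of genes passed. None passed between both drugs and ADI-PEG20 (3.42% of genes) or in the interaction (4.26%). Since the genes were proposed with these contrasts in view, the shares carry no weight as evidence about the group.

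By overlap of groups, Ntn1 and Ntn4 lay wholly below untreated with ADI-PEG20, where 4.54% of all genes did. Ntn4 did so with chloroquine, where 3.72% did, and Ntn1 and Ntn4 with both drugs, where 7.92% did. Slit2 lay wholly above untreated with both drugs, where 7.46% of all genes did. Ntn1 lay wholly below chloroquine with both drugs, where 9.57% did. None of the 8 separated both drugs from ADI-PEG20, where 9.16% of genes separated in one direction or the other. In the authors' deposited table, which comes from another fit, the Ntn1 log2 fold change was -1.26 between both drugs and untreated, with an adjusted p of 0.12, and -1.18 between both drugs and chloroquine, with an adjusted p of 0.0581.

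Across the 12 tumors, Ntn1 and Slit2 ran in opposite directions, with a Pearson r of -0.79 and a Spearman rho of -0.76 (log2 CPM). The r was -0.82 without the 2 tumors farthest from the median of Ntn1, and -0.50 for the deviations from the group means. The per-kilobase ratio of Slit2 to Ntn1 had a median of 0.218 in untreated tumors, 0.362 with chloroquine, 0.908 with ADI-PEG20 and 1.63 with both. The 3 doubly treated tumors, at 1.6 to 1.98, were wholly above the 3 untreated tumors, at 0.137 to 0.575. That follows from the separation of each gene between these groups and adds nothing to it. The tumors share their library in both values of each pair, so these correlations are descriptions and are given with no p. Anything shared by libraries of the same replicate number was not taken out of the deviations from group means.

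Other pairs also moved together. Ntn1 and Ntn4 had r = 0.71 (0.80 within groups), Slit2 and Unc5c r = 0.75 (0.69 within groups), Ntn4 and Slit2 r = -0.77 (-0.64 within groups), and Neo1 and Slit3 r = -0.81 (-0.78 within groups), over 12 libraries each. These are the 5 largest in size, Ntn1 and Slit2 included, of 28 pairs computed.

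**Figure D3:**
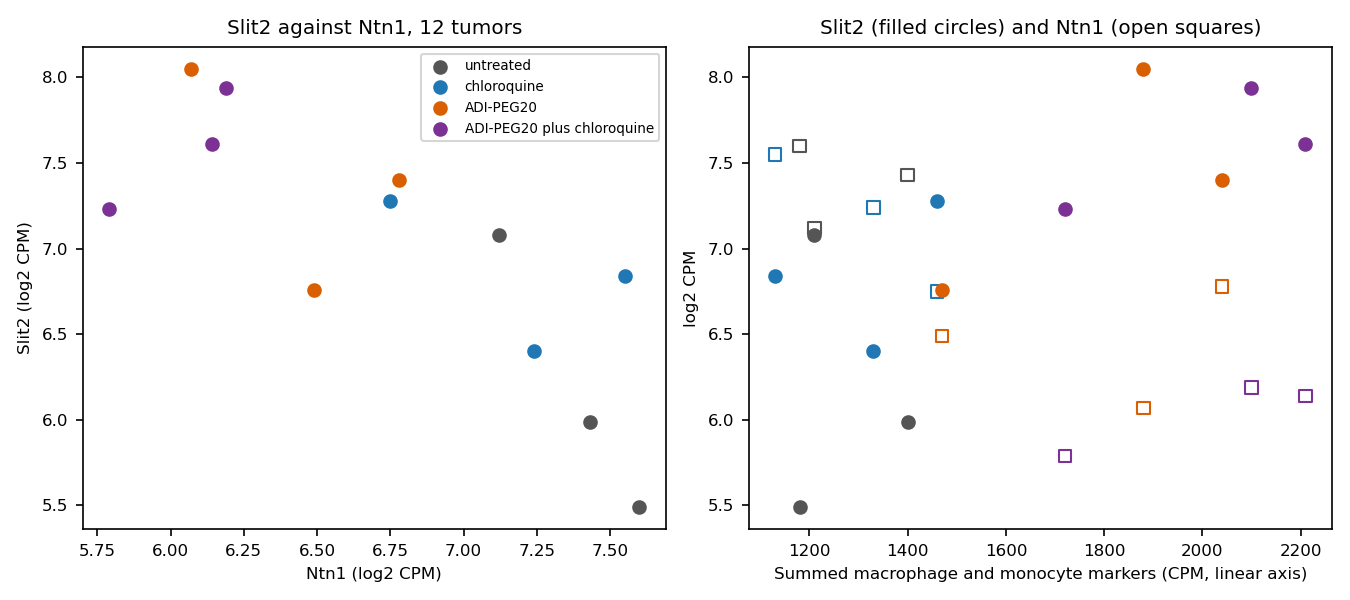
Left, Slit2 against Ntn1 in each of the 12 tumors, both in log2 CPM. Right, Slit2 (filled circles) and Ntn1 (open squares) in log2 CPM against the summed CPM of 13 macrophage and monocyte markers, with colors as on the left; r is -0.79 on the left, and the marker sum runs from 1130 to 2210 CPM.

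Macrophage and monocyte markers differed between the same groups. All 13 listed markers were in the table, and their summed level was 1180 to 1400 CPM in untreated tumors, 1130 to 1460 with chloroquine, 1470 to 2040 with ADI-PEG20 and 1720 to 2210 with both. Of the 13, 12 had a higher mean with both drugs than untreated, with a median log2 difference of 0.72, against 0.01 over all genes. Limma called 0 of them at an adjusted p under 0.05, as it did 0 of all 16335 genes. No marker of this list was at 0 reads in any library. The mean log2 CPM of the list followed Slit2 with r = 0.86 (0.67 within groups) and Ntn1 with r = -0.84 (-0.33 within groups) over 12 libraries. The part of these markers in the Slit2 and Ntn1 differences was not tested.

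Muscle markers had lower means with both drugs and mostly higher means with chloroquine alone. The 12 skeletal muscle fibre markers in the table all had a lower mean with both drugs than untreated, with a median log2 difference of -2.10, and the 7 myogenic progenitor markers in the table all did, with a median of -0.75, against 0.01 over all genes. With chloroquine 9 of the 12 and 5 of the 7 had a higher mean (medians 0.47 and 0.13), and with ADI-PEG20 3 of the 12 and 2 of the 7 did (medians -0.47 and -0.32). Limma called 0 of these markers at an adjusted p under 0.05 in any contrast, as it did 0 of all 16335 genes. The summed fibre markers ran from 762 to 5680 CPM in untreated tumors, 2980 to 4020 with chloroquine, 390 to 7550 with ADI-PEG20 and 590 to 946 with both. The 762 and 7550 CPM came from the second untreated and first ADI-PEG20 libraries, the pair rich in Gm26917. The other untreated tumors gave 5680 and 3740 CPM, and the other ADI-PEG20 tumors 1510 and 390 CPM. Summed progenitor markers ran from 491 to 695 CPM untreated, 399 to 928 with chloroquine, 216 to 533 with ADI-PEG20 and 274 to 446 with both. The progenitor list had r = 0.67 with Ntn1 (0.45 within groups), 0.75 with Slit3 (0.64) and -0.67 with Neo1 (-0.59). Its part in those levels was not tested.

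By Pearson r, Robo1 was highest with the fibroblast list and Unc5b with the pericyte and smooth muscle list. Robo1 had r = 0.83 with the 11 fibroblast markers (0.82 within groups), whose summed level was 33600 to 53700 CPM untreated and 25000 to 35900 with both drugs. Unc5b had r = 0.73 with the 12 pericyte and smooth muscle markers (0.71 within groups), which summed to 2720 to 3850 CPM untreated and 2250 to 2840 with both. By rank the order for Unc5b differed, with a Spearman rho of 0.48 for this list. The endothelial list had 0.62 and the Schwann cell and nerve list 0.59. The 15 endothelial markers, whose cells carry Unc5b and Robo4, summed to 568 to 1060 CPM untreated and 740 to 772 with both. The 10 T cell markers had r = 0.72 with both Unc5c and Slit2. They summed to 11.5 to 22.6 CPM untreated and 16.9 to 45.8 with chloroquine. With ADI-PEG20 the sum was 29.6 to 33.2 CPM, and with both drugs 18.0 to 30.1. These levels are low, and Cd3g was at 0 reads in the untreated group. The 8 genes were set against 12 lists, the r values given are among the highest found, and the part of these cells in the levels was not tested.

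The gene whose level was most like Ntn1 over the 12 libraries was Tnc, the matrix glycoprotein tenascin C, at 1410 to 4260 CPM (r = 0.959, rho = 0.951). It was followed by Nomo1 (r = 0.953), the actin filament associated protein Afap1 (r = 0.951), the actin monomer binding profilin Pfn1 (r = 0.945) and the thioredoxin family protein Nxn (r = 0.941). Without the 2 tumors farthest from the median of Ntn1 these 5 kept r between 0.914 and 0.961. Slit2 was most like Cdh11, a mesenchymal cadherin at 56.7 to 218 CPM (r = 0.973, rho = 0.944). Unc5c was most like the lymphocyte surface protein Ly9 (r = 0.938, with rho = 0.825), Robo1 like Olfml2b (r = 0.933, rho = 0.783), Slit3 like the proprotein convertase Pcsk5 (r = 0.906), Ntn4 like Suds3 (r = 0.902), Unc5b like D230017M19Rik (r = 0.91) and Neo1 like Aplf (r = 0.867). Each of these is the highest of all other genes in the table, so a high r is built into the choice.

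The rest of the netrin and Slit pathway gave no call, and neither did any other gene of the table. Of 26 further ligands and receptors, 19 were in the table, and limma called 0 of them at an adjusted p under 0.05 in any contrast. Since limma called 0 of all 16335 genes, this says nothing about the pathway. With both drugs 7 had a higher and 12 a lower mean than untreated, with a median log2 difference of -0.25, against 50.8% of all genes higher and a median of 0.01. With ADI-PEG20 7 were higher and 12 lower (median -0.08), and with chloroquine 9 were higher and 10 lower (median -0.02). Dcc, the classical netrin receptor, and Unc5d were not among the 19 in the table and could not be analysed. Low genes had been removed before deposit, and the levels of Dcc and Unc5d are not known here.

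Among these genes, Robo2, the second Slit receptor, gave 10.3 to 28.0 CPM untreated and 21.9 to 49.6 CPM with both drugs, a log2 difference of 0.99 (SE 0.40, limma adjusted p = 0.54). Rgmb, a neogenin ligand, gave 39.8 to 55.5 CPM untreated and 30.5 to 34.8 CPM with both, without overlap (-0.48, SE 0.24, limma adjusted p = 0.608), while Rgma overlapped (52.6 to 71.9 against 43.9 to 60.4 CPM). Robo4, the endothelial Robo, gave 17.6 to 29.6 CPM untreated and 26.2 to 27.9 CPM with both. Unc5a gave 7.29 to 13.7 CPM untreated and 4.09 to 12.3 with both, and Slit1 1.1 to 5.0 and 1.84 to 2.46 CPM. These genes outside the naming rule were chosen after their values were seen, as the nearest relatives of the 8.

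Dscam, a netrin receptor of the immunoglobulin family, had the smallest p of this list with both drugs. It gave 2.61 to 4.3 CPM untreated and 1.5 to 1.63 CPM with ADI-PEG20. The doubly treated tumors ran from 0 reads in 1 library up to 1.98 CPM. The log2 difference was -3.05 (SE 1.22, limma adjusted p = 0.539), a size that depends on the offset added to the library with 0 reads. With ADI-PEG20 the smallest p of the list belonged to Slitrk6, a neuronal transmembrane protein with Slit-like repeats, at 1.47 to 3.42 CPM against 4.43 to 5.62 untreated (-1.14, SE 0.45, limma adjusted p = 0.553). With chloroquine it belonged to the adenosine receptor Adora2b, at 2.08 to 4.82 against 4.81 to 7.64 CPM (-0.80, SE 0.37, limma adjusted p = 0.999).

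The 29 cytoplasmic transducers in the table, which carry netrin and Slit signals to the cytoskeleton, had medians close to 0. With both drugs 10 were higher and 19 lower than untreated, at a median log2 difference of -0.05; with ADI-PEG20 15 were higher and 14 lower (median 0.02), and with chloroquine 13 and 16 (median -0.01). Limma called 0 of the 29 at an adjusted p under 0.05, as it did 0 of all 16335 genes. The Robo-binding GTPase activating protein Arhgap39 gave 49.4 to 64.5 CPM with ADI-PEG20 and 37.0 to 40.5 untreated (0.58, SE 0.21, limma adjusted p = 0.524). The actin regulator Vasp gave 154 to 176 CPM with both drugs and 170 to 234 untreated (-0.28, SE 0.15, limma adjusted p = 0.626). Ablim1, an actin binding protein, gave 74.1 to 111 CPM with chloroquine and 25.7 to 99.1 untreated (0.73, SE 0.42, limma adjusted p = 0.999).

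**Figure D4:**
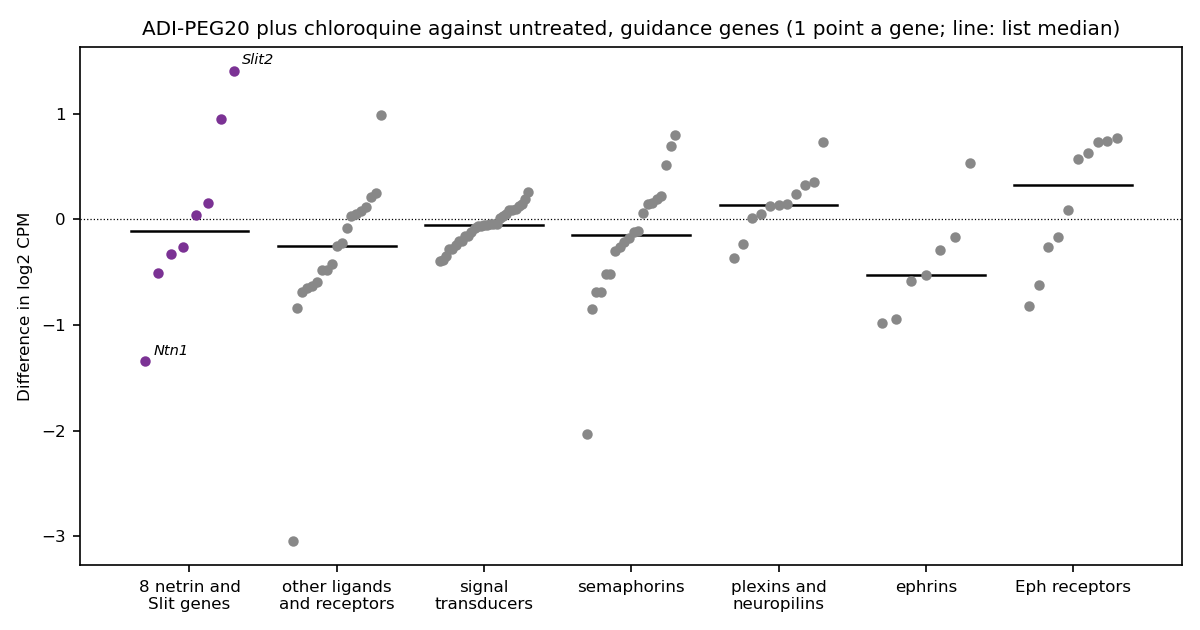
Difference in log2 CPM between doubly treated and untreated tumors for each guidance gene, by list, with a line at the median of the list. The 8 netrin and Slit genes span -1.34 (Ntn1) to 1.41 (Slit2) around a median of -0.11; the lowest gray point is Dscam at -3.05.

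The other guidance families were described for comparison, and limma called 0 of their genes at an adjusted p under 0.05 in any contrast. It called 0 of all 16335 genes there too. With both drugs, 8 of 20 semaphorins were higher than untreated (median log2 difference -0.15), 9 of 11 plexins and neuropilins (0.14), 1 of 7 ephrins (-0.53) and 6 of 10 Eph receptors (0.33). With ADI-PEG20 the numbers higher were 10, 8, 3 and 7. The smallest p among semaphorins with both drugs belonged to Sema6c, at 0.535 to 0.887 CPM against 2.14 to 3.59 untreated (limma adjusted p = 0.372). Among plexins it belonged to Plxnb1, at 16.5 to 24.8 against 25.7 to 29.7 CPM (limma adjusted p = 0.625). Among ephrins it belonged to Efna2, at 2.11 to 6.23 against 6.48 to 9.15 CPM (limma adjusted p = 0.559), and among Eph receptors to Ephb2, at 20.8 to 25.6 against 34.5 to 38.2 CPM (limma adjusted p = 0.441). With ADI-PEG20 it belonged to Sema4d, Plxna1, Efna1 and Epha1, and with chloroquine to Sema3d, Plxnb3, Efna1 and Epha1. Epha1 gave 6.71 to 8.9 CPM with ADI-PEG20 and 6.04 to 7.11 with chloroquine against 2.85 to 5.64 untreated (log2 differences 0.99 and 0.76, SE 0.27 each, limma adjusted p 0.481 and 0.999).

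The authors' deposited KEGG results hold an Axon guidance set of 166 genes that includes all 8 genes. The value under the header mean_logFC, read here as a score, was -0.1 for ADI-PEG20, 0.88 for chloroquine and -1.19 for both drugs against untreated, with adjusted p-values of 0.926, 0.989 and 1.0 over 246 sets. The mean of the authors' deposited log2 fold changes over the same 166 genes was 0.03, 0.05 and -0.06, so the column does not hold that mean. In the limma fit of the log2 CPM, 85 of its 166 genes were higher with ADI-PEG20, 87 with chloroquine and 68 with both drugs, with median log2 differences of 0.01, 0.02 and -0.07.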

How the data were processed

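RNA was measured in 12 tumors. Per the labels' protocols, total RNA was extracted from frozen tumors (Direct-zol) and ribosomal RNA was depleted (KAPA RiboErase). The submitters' processing notes list limma, edgeR, Salmon 0.8.2, featureCounts 1.4.6-p5 of Subread, STAR 2.5.1a, bcl2fastq and the build mm10, and give no role or order.

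The authors deposited log2 CPM for each library in 1 table of 16386 lines, of which 51 repeat an identifier and were dropped, leaving 16335 genes. From the values, the deposited log2 CPM are the log2 of reads plus 0.5 over an effective library size: 100% of values under 2000 reads came within 0.02 of a whole number once the worth of 1 read was recovered. No gene had under 85 reads over the 12 libraries, so low genes had been removed before deposit and no filter was added. Per the file headers, the authors also deposited log2 fold changes with adjusted p-values and a fold change with a sign, which serves as a score, and KEGG tables with a p-value per set. The KEGG column headed mean_logFC is treated as a score of unknown make, because it differs from the mean of the deposited log2 fold changes of the listed genes.

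Differences were fitted to these log2 CPM by limma 3.58.1 (R 4.3.3). The 4 groups shared 1 model without covariates, with variances moderated along a trend in mean expression, two-sided tests and Benjamini-Hochberg adjustment over 16335 genes at 0.05. The fit was tested on simulated data. The 8 genes, the other gene lists and the naming rule were chosen with earlier results of these data known. The rule named the 8 genes, any gene of the other guidance lists past the threshold, the gene of the smallest p per list in each comparison with untreated tumors, the 5 genes most correlated with Ntn1 and the 1 most correlated with each other gene. Replicate numbers were not taken as pairs, since the labels do not say that a number marks anything shared and 9 of 18 same-numbered pairs of libraries, not all, had correlated deviations over 0.1. Pairing is not excluded by this, as 9 of 12 libraries correlated best with a library of their own number. The sample numbers in the labels also rise with the replicate number in each group, and what they count is not given. Gene positions and lengths are from GENCODE on GRCm38, matched by identifier for 8 of 8 genes, and promoters from RefSeq on GRCm38.p6. CPM per kilobase is CPM over the longest coding transcript. Alternatives covered weights, voom, scaling, a filter on low values, a pseudocount of 1 CPM, the samples fitted, a replicate block and leaving out libraries.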

Additional observations from a re-analysis of the deposited data

How the results depend on the processing

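For the count of genes called at an adjusted p under 0.05 by limma, 0 in each of the 6 contrasts, most of the alternatives also gave 0. Exceptions between both drugs and untreated were 8 genes with a replicate block and 17 without the first ADI-PEG20 and second untreated libraries, a choice made after seeing the data. Exceptions between both drugs and chloroquine were 15 genes with library quality weights, 72 with only the libraries compared and 22 without the same 2 libraries. Leaving out each library in turn gave 0 to 1 genes between ADI-PEG20 and untreated (1 without untreated 3), 0 to 1 between both drugs and chloroquine (1 without ADI-PEG20 3), and 0 in the other contrasts. The cause was not tested.

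Of the 8 genes, only Ntn1 was called in any alternative. With the replicate block its difference between both drugs and untreated was -1.34 (limma adjusted p = 0.0425), and with library quality weights that between both drugs and chloroquine was -1.18 (limma adjusted p = 0.0488). Same-numbered libraries had correlations of deviations from -0.05 to 0.199, other pairs from -0.242 to 0.186, and 9 of 12 libraries correlated best with their own number, which is a hint of pairing from the data. The labels do not give one and only 9 of 18 same-numbered pairs were over 0.1, so the block was kept as an alternative. It left the Slit2 difference between both drugs and untreated at 1.41 and lowered its SE to 0.22.

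Of 1000 recomputed values of the 8 genes, 997 moved by less than 1 SD between replicates and 39 took the other sign, 1 or more of them for each of the 8 genes. Many of these values were fixed in advance. The filter, the replicate block and leaving out a library of a group not compared leave a difference of group means unchanged. The count of 997 is therefore no measure of robustness. The 3 that moved were those of Unc5b without the second ADI-PEG20 library: 0.22 against untreated, -0.48 for both drugs against ADI-PEG20 and -0.39 for the interaction. The Ntn1 difference ranged from -1.11 to -0.75 with ADI-PEG20 and from -1.47 to -1.22 with both drugs when single libraries were left out. Other scalings shifted the median of all genes by at most 0.079. The planned edgeR count tests were not run, since the deposited unit is log2 CPM. Depth limited Unc5c most, with 130 to 933 reads per library.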

Other observations

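Some genes within 1 megabase of Unc5c on chromosome 3 varied with it, most of them in 1 cluster at the edge of that window. Of the 7 other genes of the table within 1 megabase, the guanylate binding proteins Gbp7, Gbp2b, Gbp2 and Gbp3, which are known as interferon-induced, had r of 0.86, 0.83, 0.80 and 0.80 with Unc5c over the 12 libraries, and the receptor Bmpr1b had 0.73. Gm15688, whose exons overlap those of Unc5c on the opposite strand, had 0.16, and Pdlim5 had -0.34. The median of the 7 was 0.80, against -0.01 over all genes, and the 4 Gbp genes lie beside each other 0.89 to 0.98 megabases away. The 777 other genes of chromosome 3 had a median r of 0.01 with Unc5c. Gbp2 had a mean of 36.3 CPM in untreated tumors and 54.4 CPM with both drugs, and Gbp7 35.0 and 52.7 CPM. This window was looked at after the values were seen, and no test was run.

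The neighbours of the other genes gave lower medians. The 25 neighbours of Ntn1 on chromosome 11 had a median r of -0.05 with it, and the 1382 genes of that chromosome -0.04, although 2 of the 5 genes most like Ntn1, Pfn1 and Nxn, lie on the same chromosome. For Slit2 the 4 neighbours had a median of 0.63, with the potassium channel interacting protein Kcnip4 at 0.50, and for Slit3 the 5 neighbours had a median of -0.30.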
